A study of Mus musculus with 58 samples.

Results

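Splicing of a pre-mRNA begins when the small nuclear ribonucleoproteins (snRNPs) and their helper proteins mark the ends of an intron. SR proteins bind exonic enhancers and recruit the machinery, while the heterogeneous nuclear ribonucleoproteins (hnRNPs) coat nascent RNA and often mask splice sites. U2AF reads the 3′ splice site, the SF3a and SF3b complexes hold the U2 snRNP on the branch point, and the Snrp genes encode the Sm proteins and other proteins of the snRNP particles. Several of these genes carry recurrent mutations in human myelodysplastic syndromes, clonal disorders of blood stem cells. The genes described here were the rows of the count table whose symbols belong to these families, with at least 20 counts over all 58 cells. Of 23152 rows, 55 matched by name and 51 had enough counts: 10 SR genes, 19 hnRNP genes, 9 genes of SF3a and SF3b, 3 U2AF genes and 10 Snrp genes.

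The cells were wild type C57BL/6 mouse bone marrow cells, sorted one by one by surface markers and sequenced from their 3′ ends. The LT-HSC gate (long-term haematopoietic stem cells) was Lin-cKit+Sca1+Flt3-CD34- and held 34 cells, and the CMP gate (common myeloid progenitors) was Lin-cKit+Sca1-CD16/32-CD34+ and held 24. The stem cells were split into LT-HSC 1-16 (16 cells) and LT-HSC 17-34 (18 cells), a division that no label gives and that was chosen with earlier results in view. No cell was treated, and all groups share strain, genotype and tissue. The labels name no animal, age or sex, and they list a passage range, an entry otherwise used for cultured cells. Because no cell can be tied to an animal, each pool is 1 sample and no test between pools was possible. Levels below are CPM (counts per 1000000 counts of the same pool or cell), and intervals are exact 95% intervals that cover counting error only. CPM is not scaled by gene length, so levels are compared between pools and not between genes.

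The pools held 3410149, 6520982 and 7062737 counts in LT-HSC 1-16, LT-HSC 17-34 and CMP, and single cells held 45022 to 860553. The 8 LT-HSC markers summed to 1092, 559 and 146 CPM in the pools in that order, and the 8 CMP markers to 473, 665 and 5143 CPM. Of the other markers, those of neutrophils summed to 298, 342 and 894 CPM, those of B cells to 58.6, 92.3 and 48.1 CPM, and those of endothelium to 140, 24.7 and 57.5 CPM. The macrophage list stayed at or under 1.27 CPM, and of the T and NK list only Nkg7 had counts, at 2.35, 530 and 427 CPM. Genes of S phase summed to 778, 2523 and 2644 CPM and genes of G2 and M to 172, 1262 and 2225 CPM, lowest in LT-HSC 1-16 for both lists. No LT-HSC had a count of Xist, the transcript of the inactive X chromosome, and 22 of the 24 CMP had one. CMP 1 and CMP 2 had none and carried 88 and 7 Y-linked counts, so gate and donor sex nearly coincide. Only these 2 CMP match the LT-HSC in those transcripts, and counts are also given without them, where gate and donor sex cannot be told apart. The part of any of these differences in the results below was not tested.

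Of the 4 genes below the limit, Hnrnph3 had 4 counts, Srsf12 had 8, Snrpf had 11 and Snrpn had none in any cell. Just inside it stood Srsf4 with 49 counts, Hnrnpul1 with 147 and Hnrnpul2 with 396. Snrpf encodes an Sm core protein, and every 50-base stretch of its last 400 transcript bases is shared with Ccdc38 in the annotation, as is that of Srsf4 with Gm12992. Stretches were searched on both strands, and Ccdc38 and Gm12992 lie on the opposite strand. The counts of Snrpf and Srsf4 are therefore uncertain, as whether counting used strand is not given in the sources used here.

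Promoter sequence gives one feature that the choice of genes did not use. RefSeq (GRCm38.p6) lists promoter windows for 44 of the 51 genes, from 250 bases before to 50 bases after a transcription start. The CCAAT box, searched as CCAAT on both strands, is the site read by the NF-Y complex. It was found in 17 of 26 hnRNP windows (65.4%), in 2 of 9 Snrp windows (22.2%) and in 47.5% of the windows of all members, against 37.4% of all 32851 windows. The ETS core CCGGAAG was found in 7 of 8 SF3 windows (87.5%) and in 35.6% of member windows, against 8.86% of all windows. In the other families it was in 46.2% of SR, 44.4% of Snrp, 15.4% of hnRNP and 0% of U2AF windows. The E-box CACGTG and the cyclic AMP response element TGACGTCA were also searched. They were in 11.9% and 3.39% of member windows, against 7.15% and 1.79% of all. Windows were counted, not genes, and the 26 hnRNP windows belong to 17 genes. Windows of 1 gene can overlap, and the member windows had a median GC content of 61%, against 52.7% for all windows. The motifs were picked after values had been seen, and a match is a run of letters, not a bound site. Of the 9 members at least 2-fold lower in both LT-HSC pools than in CMP, 3 had a listed window whose bases before the start overlap no annotated gene, and these 250 bases are shown 5′ to 3′ on the gene's strand, with CCAAT or its reverse complement ATTGG in capitals. Those of Hnrnpa0 lie at chr13:58128557-58128806 (minus strand), those of Hnrnpab at chr11:51606882-51607131 (minus) and those of Hnrnpul1 at chr7:25754760-25755009 (minus).
Hnrnpa0: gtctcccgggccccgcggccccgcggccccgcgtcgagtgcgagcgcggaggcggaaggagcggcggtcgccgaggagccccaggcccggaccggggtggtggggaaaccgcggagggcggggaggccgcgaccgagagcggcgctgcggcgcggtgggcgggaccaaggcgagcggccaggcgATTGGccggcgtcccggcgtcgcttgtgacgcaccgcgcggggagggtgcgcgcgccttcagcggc
Hnrnpab: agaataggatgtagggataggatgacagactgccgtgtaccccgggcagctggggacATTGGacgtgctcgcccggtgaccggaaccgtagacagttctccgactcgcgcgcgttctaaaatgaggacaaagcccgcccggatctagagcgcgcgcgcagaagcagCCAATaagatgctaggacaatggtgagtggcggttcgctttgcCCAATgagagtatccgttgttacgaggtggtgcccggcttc
Hnrnpul1: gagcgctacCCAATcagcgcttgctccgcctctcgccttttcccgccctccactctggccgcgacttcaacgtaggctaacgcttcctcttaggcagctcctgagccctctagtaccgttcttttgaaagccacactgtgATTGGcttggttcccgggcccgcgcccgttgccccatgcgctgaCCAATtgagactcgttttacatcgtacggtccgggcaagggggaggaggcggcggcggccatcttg
The box of Hnrnpa0 begins 66 bases before the start, and Hnrnpab and Hnrnpul1 each hold 3. The 3 windows had GC contents of 81.2%, 58.4% and 61.6%.

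The 51 genes together stood at 11097 CPM in LT-HSC 1-16, 14433 in LT-HSC 17-34 and 16271 in CMP. Per 10000 counts of a cell, the members held 92.6, 105.9 and 160.0 (lowest, median and highest cell) in LT-HSC 1-16, 79.1, 142.2 and 177.8 in LT-HSC 17-34, and 132.1, 160.1 and 191.6 in CMP. In LT-HSC 1-16, 14 of 16 cells lay below the lowest CMP, and in LT-HSC 17-34 this held for 8 of 18. Among the families the hnRNP genes had the widest gap to CMP: their median per 10000 counts was 24.4, 27.8 and 47.0 in the 3 pools, and 13 of 16 and 11 of 18 LT-HSC lay below the lowest CMP at 31.6. CMP 1 and CMP 2 stood at 52.7 and 32.4 hnRNP counts per 10000, within the CMP range. The SR genes had medians of 24.7, 24.9 and 34.3 per 10000, with 7 of 16 and 6 of 18 LT-HSC below the lowest CMP. SF3 genes had medians of 14.8, 15.3 and 18.5, also with 7 of 16 and 6 of 18 LT-HSC below the lowest CMP.

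The Snrp genes followed another order. Their lowest, median and highest cell held 26.1, 43.1 and 61.2 per 10000 counts in LT-HSC 1-16, 19.1, 59.9 and 83.5 in LT-HSC 17-34, and 37.4, 54.9 and 68.9 in CMP. In LT-HSC 17-34, 5 of 18 cells lay above the highest CMP and 9 of 18 above the highest cell of LT-HSC 1-16, while 4 of 16 cells of LT-HSC 1-16 lay below the lowest CMP. Within the splicing factor counts themselves, hnRNP genes made up a median of 21.8%, 21.3% and 28.6% in the 3 pools, and Snrp genes 38.6%, 46.2% and 35.7%. By their medians, both LT-HSC pools thus held a smaller hnRNP part and a larger Snrp part than the CMP, with single cells overlapping between all pools.

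**Figure D1:**
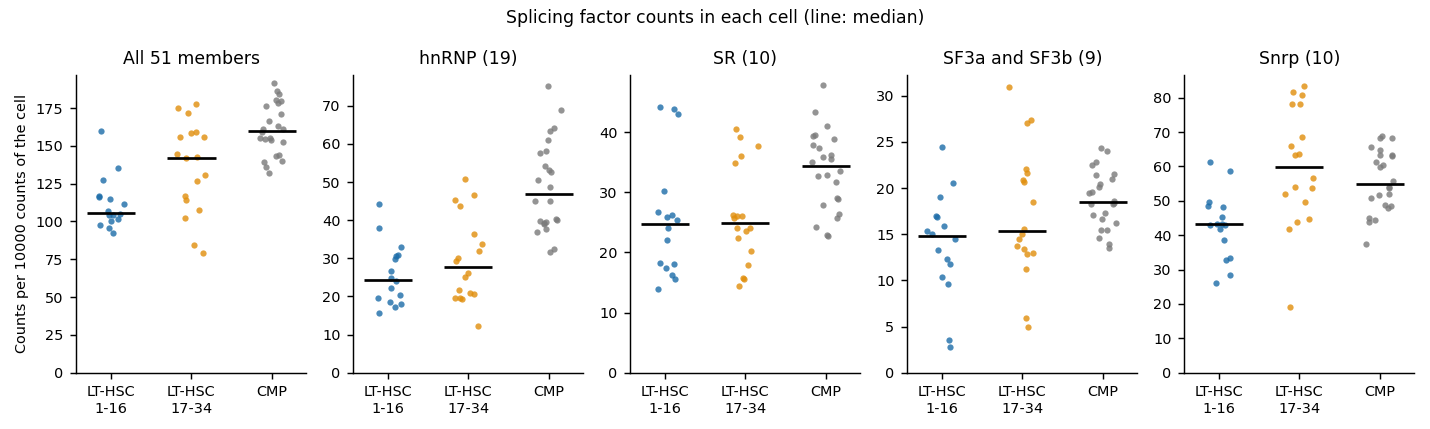
Counts of all 51 members and of the hnRNP, SR, SF3 and Snrp genes per 10000 counts of a cell (vertical axes), 1 point a cell, in LT-HSC 1-16, LT-HSC 17-34 and CMP; the line is the median. The hnRNP medians were 24.4, 27.8 and 47.0 and the Snrp medians 43.1, 59.9 and 54.9.

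With summed counts, no member of LT-HSC 1-16 lay 2-fold or more above CMP, while 22.7% of the 10937 genes with at least 20 counts did, and 19 of 51 were at least 2-fold lower, where 37.3% of all genes were. The share of members on the lower side (37.3%) was therefore that of all genes, and the members' median log2 ratio was −0.75 beside −0.36 over all genes. Among genes with at least 1000 counts, a minimum added after the values were seen, 0 of 41 members were higher and 13 lower, beside 10.6% and 22.2% of 2537 genes. The median with that minimum was −0.53 for members and −0.22 for all genes. Without CMP 1 and CMP 2, 0 members were higher and 21 lower, beside 21.6% and 37.6%, with a median of −0.72. No member reached the upper 2-fold line with these totals, and 43 of 51 had a ratio below 0 (84.3%), beside 58.4% of all genes.

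In LT-HSC 17-34 against CMP, again 0 members were at least 2-fold higher (20% of all genes) and 15 were lower (34.5% of all genes), with a median log2 ratio of −0.42 beside −0.24. With at least 1000 counts, 0 of 41 were higher and 7 lower, beside 12.2% and 11.2% of all genes, and the median was −0.18 beside 0.05. Without CMP 1 and CMP 2 the counts were 0 and 17 (19.4% and 34.9% of all genes), with a median of −0.47. Both comparisons use the same CMP cells, so their values are not independent of each other. Lower by at least 2-fold in both were 9 members: Hnrnpa0, Hnrnpa3, Hnrnpab, Hnrnpul1, Hnrnpul2, Sf3a1, Sf3b3, Srsf4 and U2af2. Of these, Srsf4 (3, 0 and 46 counts in the 3 pools) and Hnrnpul1 (4, 6 and 137) passed the minimum of 20 counts only through CMP. Their place among the lower genes is therefore not independent of that minimum. Another 10 were at least 2-fold lower only in LT-HSC 1-16 and 6 only in LT-HSC 17-34, where all 6 were hnRNP genes, and 26 in neither. Whether the pools differ for these was not tested. The shares of all genes lower in both pools, in only 1 or in neither were not computed. These counts therefore list members and do not set them apart from other genes. Without CMP 1 and CMP 2, Hnrnpa1, Hnrnpa2b1, Hnrnpm, Sf3b1 and Srsf3 were also lower by that much in both pools, and Hnrnpl in neither.

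Between the LT-HSC pools, 6 members lay 2-fold or more above in LT-HSC 17-34 (28% of all genes) and 5 were lower (28.1% of all genes), and the median log2 ratio was 0.33 beside −0.02 over all genes. Higher were Hnrnpd, Hnrnpdl, Hnrnpu, Sf3a2, Snrpd3 and Srsf10. Lower were Hnrnpa1, Hnrnph2, Hnrnpul2, Sf3a1 and Srsf4, the last with 3 counts against 0, which gives no fold. All 5 lower genes had under 1000 counts over all cells, and above that minimum the split was 5 higher and 0 lower of 41, beside 19.8% and 7.73% of all genes. With that minimum the median was 0.43 for members and 0.25 for all genes, so genes with many counts were in general higher in LT-HSC 17-34. The members' shares past 2-fold were 11.8% and 9.80% with the 20-count minimum.

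**Figure D2:**
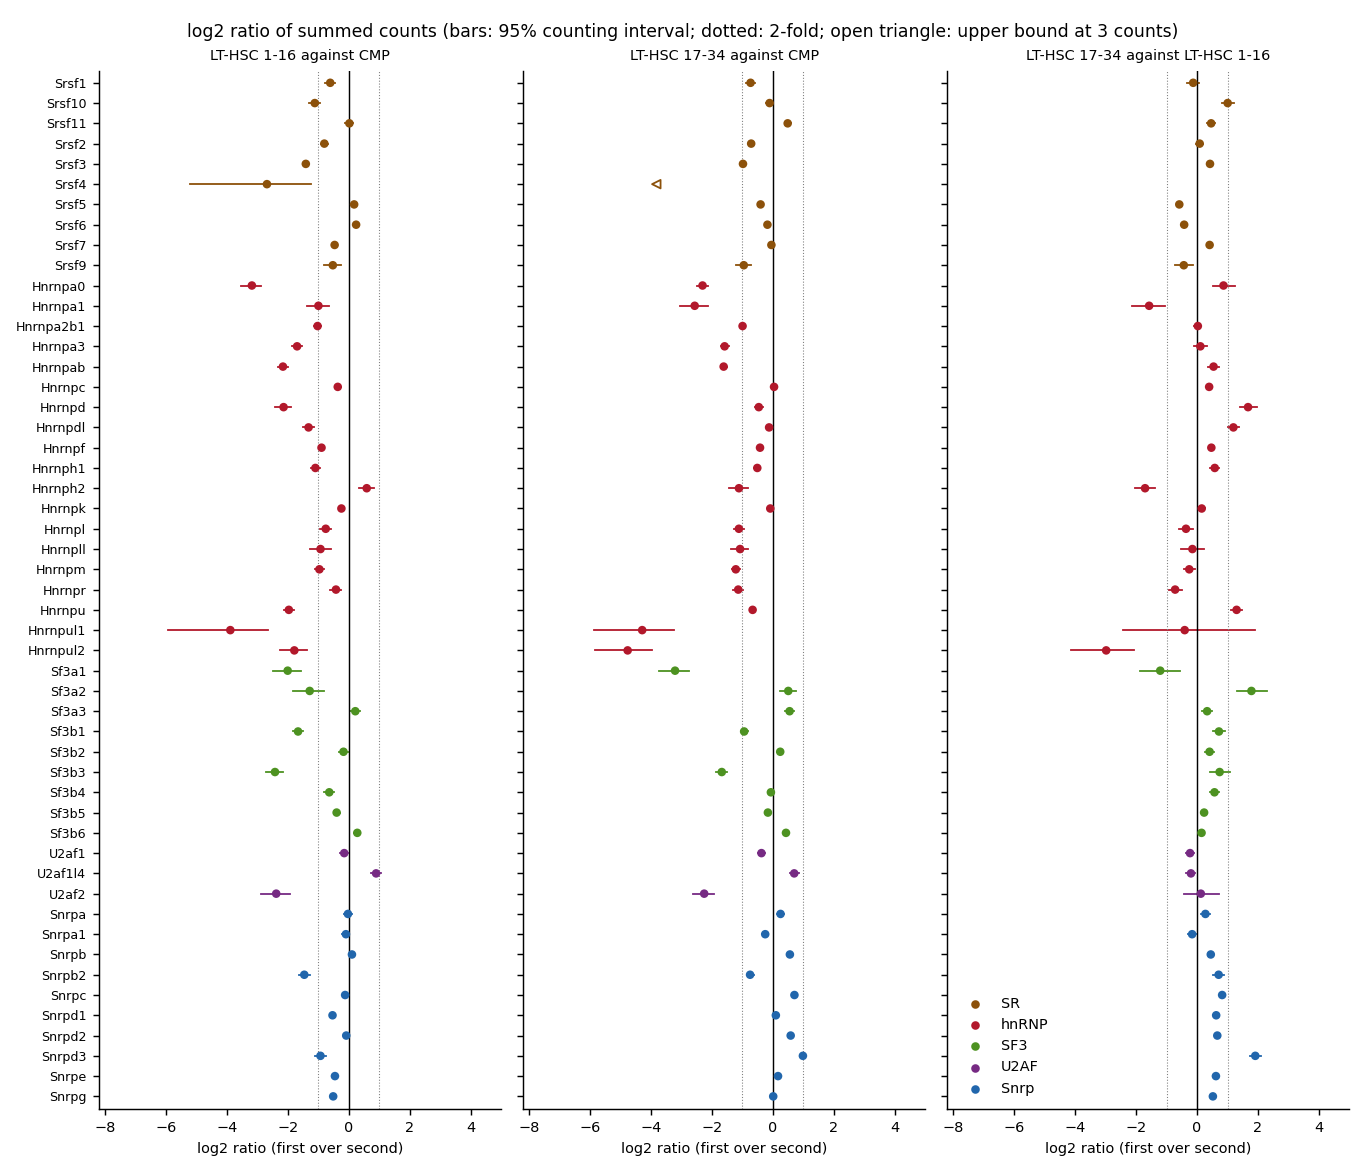
log2 ratio of summed counts for each of the 51 members (rows, coloured by family) in 3 comparisons, with 95% counting intervals as bars and dotted lines at 2-fold. No point lies right of the upper dotted line in either comparison with CMP, where 19 and 15 lie left of the lower one; the open triangle is the upper bound for Srsf4 at 3 counts.

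In both LT-HSC pools 18 of 19 hnRNP genes had a log2 ratio below 0 against CMP, beside 58.4% and 56.8% of all genes. The family medians were −1.02 and −1.11. At least 2-fold lower were 10 and 11 of 19 (52.6% and 57.9%), beside 37.3% and 34.5% of all genes, and with at least 1000 counts 8 and 6 of 14, beside 22.2% and 11.2%. Their summed level was 2484 CPM in LT-HSC 1-16, 3134 in LT-HSC 17-34 and 5074 in CMP. Without CMP 1 and CMP 2 the medians were −1.12 and −1.09, with 12 and 11 lower. Between the LT-HSC pools the family median was 0.11, with 3 genes higher and 3 lower, and it stood at about 0 when ribosomal protein genes were taken out of the totals. Ribosomal protein genes themselves held a median of 2851, 2364 and 2227 of 10000 counts in the 3 pools, and their part in the hnRNP levels was not tested.

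Hnrnpa0 (chr13:58125879-58128556, minus strand), an intronless gene whose protein binds AU-rich elements of mRNAs, stood at 24.3 CPM in LT-HSC 1-16, 44.6 in LT-HSC 17-34 and 221 in CMP. Over single cells the lowest, median and highest were 0, 7.03 and 330 CPM in LT-HSC 1-16, 0, 4.79 and 218 in LT-HSC 17-34, and 21.8, 154 and 555 in CMP. It had a count in 12 of 16, 13 of 18 and 24 of 24 cells. Typical LT-HSC lay below every CMP, but the ranges overlapped through a few LT-HSC. LT-HSC 8 alone held 78.3% of the counts of its pool. The log2 ratio to CMP was −3.18 (−3.52 to −2.86) in LT-HSC 1-16, −5.26 without LT-HSC 8, and −2.31 (−2.49 to −2.13) in LT-HSC 17-34. CMP 1 and CMP 2 together stood at 203 CPM, near the level of the whole CMP pool.

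Hnrnpab (chr11:51600100-51606847, minus strand), which encodes an mRNA-binding protein of the A/B family, stood at 110, 160 and 491 CPM. Its lowest, median and highest cell were at 0, 109 and 303 CPM in LT-HSC 1-16, at 0, 27.5 and 807 in LT-HSC 17-34 and, in CMP, at 117, 407 and 1224. The log2 ratio to CMP was −2.16 (−2.32 to −2.0) in LT-HSC 1-16 and −1.61 (−1.72 to −1.51) in LT-HSC 17-34. The middle cell of both LT-HSC pools lay below every CMP, and the highest cells of both lay within the CMP range. Hnrnpa3, a relative of Hnrnpa2b1, stood at 90.6, 97.8 and 293 CPM, with log2 ratios to CMP of −1.69 and −1.58. LT-HSC 33 held 56.3% of its counts in LT-HSC 17-34, and without that cell the second ratio was −2.58.

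Both relatives of Hnrnpu among the low genes rested on few counts. Hnrnpul1 had 4, 6 and 137 counts in the 3 pools and none in CMP 1 and CMP 2, and CMP 19 held 61.3% of those in CMP. Its log2 ratios to CMP were −3.88 and −4.29, and −2.61 and −3.02 without CMP 19, while leaving out LT-HSC 20 gave −5.62 for the second. Hnrnpul2 had a count in 3 of 16, 7 of 18 and 24 of 24 cells, at 13.8, 1.69 and 47.9 CPM. Its ratio to CMP was −1.78 in LT-HSC 1-16 and −4.76 (−5.84 to −3.97) in LT-HSC 17-34. Of the counts in LT-HSC 1-16, 63.8% came from LT-HSC 2, and without it the first ratio was −3.18 and that between the LT-HSC pools was −1.59 in place of −2.98. Hnrnpul2 was thus seen in every CMP and in a minority of LT-HSC.

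Among the hnRNPs that act in splicing repression and mRNA turnover, Hnrnpa1, which binds exonic silencers, stood at 22.9, 7.67 and 45.7 CPM, with log2 ratios to CMP of −0.99 (−1.38 to −0.64) and −2.56 (−3.04 to −2.14), the first −1.16 without CMP 1 and CMP 2. Its cell medians were 8.34, 2.29 and 41.9 CPM. Hnrnpd, which directs decay of AU-rich mRNAs, stood at 38.1, 122 and 168 CPM, with ratios of −2.14 (−2.41 to −1.88) and −0.46 (−0.59 to −0.33), the second −1.0 without LT-HSC 34. Hnrnpu, a protein that ties RNA to chromatin, stood at 95.9, 236 and 374 CPM, with ratios of −1.96 and −0.66, the second −1.08 without LT-HSC 32. Its ratio between the LT-HSC pools was 1.30, 0.88 without LT-HSC 32 and 1.90 without LT-HSC 4, and the first ratio to CMP was −2.57 without LT-HSC 4. Hnrnpdl, a relative of Hnrnpd, showed the same kind of step, from 97.9 to 224 CPM between the LT-HSC pools beside 244 in CMP, with a ratio of 1.19 (0.89 without LT-HSC 33).

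In single cells these steps were unevenly shared. Hnrnpd had a cell median of 14.1 CPM in LT-HSC 1-16, 10.0 in LT-HSC 17-34 and 116 in CMP, so the typical cell of both LT-HSC pools was low, and LT-HSC 34 held 38.9% of the counts of its pool. Hnrnpu had cell medians of 21.6, 58.4 and 323 CPM, and Hnrnpdl of 24.7, 76.0 and 261. For all 3 genes the pool level lay well above the middle cell in LT-HSC 17-34, and in LT-HSC 1-16 as well.

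The other hnRNPs with at least 2-fold differences stood closer to that line. Hnrnpa2b1 (296, 301 and 600 CPM) had log2 ratios to CMP of −1.02 and −0.99, and the first was −0.86 without CMP 4. Hnrnph1 (140, 209 and 298 CPM) had −1.09 and −0.51, and the first was −0.96 without LT-HSC 15. Hnrnpl (87.7, 68.2 and 148 CPM), which binds CA repeats, had −0.75 and −1.11, and the second was −0.89 without CMP 1. In its relative Hnrnpll (26.7, 24.1 and 50.8 CPM) the ratios were −0.92 and −1.08, and −0.46 and −0.61 without CMP 23. These calls hung on single cells. Hnrnpm had −0.96 and −1.22, and Hnrnpr −0.42 and −1.14, the last −2.27 without LT-HSC 27 and −0.92 without CMP 4.

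Hnrnpf, which binds G-runs, stood at 376, 521 and 697 CPM and had a count in every cell of all pools, with log2 ratios to CMP of −0.89 and −0.42. Hnrnpc, which binds U-runs, stood at 358, 471 and 459 CPM, and Hnrnpk, which binds C-rich RNA, at 404, 449 and 476. Hnrnpc and Hnrnpk lay within 0.36 of CMP on the log2 scale in both LT-HSC pools. Only Hnrnph2, an X-linked relative of Hnrnph1 (chrX:134601179-134607060, plus strand), was above CMP in LT-HSC 1-16, at 65.1 CPM beside 19.9 in LT-HSC 17-34 and 43.2 in CMP. Its ratios to CMP were 0.59 (0.22 without LT-HSC 13) and −1.11. The latter was −2.80 without LT-HSC 22, which held 70.8% of the counts of its pool, and −0.92 without LT-HSC 33. The cell medians of Hnrnph2 were 11.2, 3.19 and 15.2 CPM, so the middle cell of LT-HSC 1-16 lay below that of CMP.

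**Figure D3:**
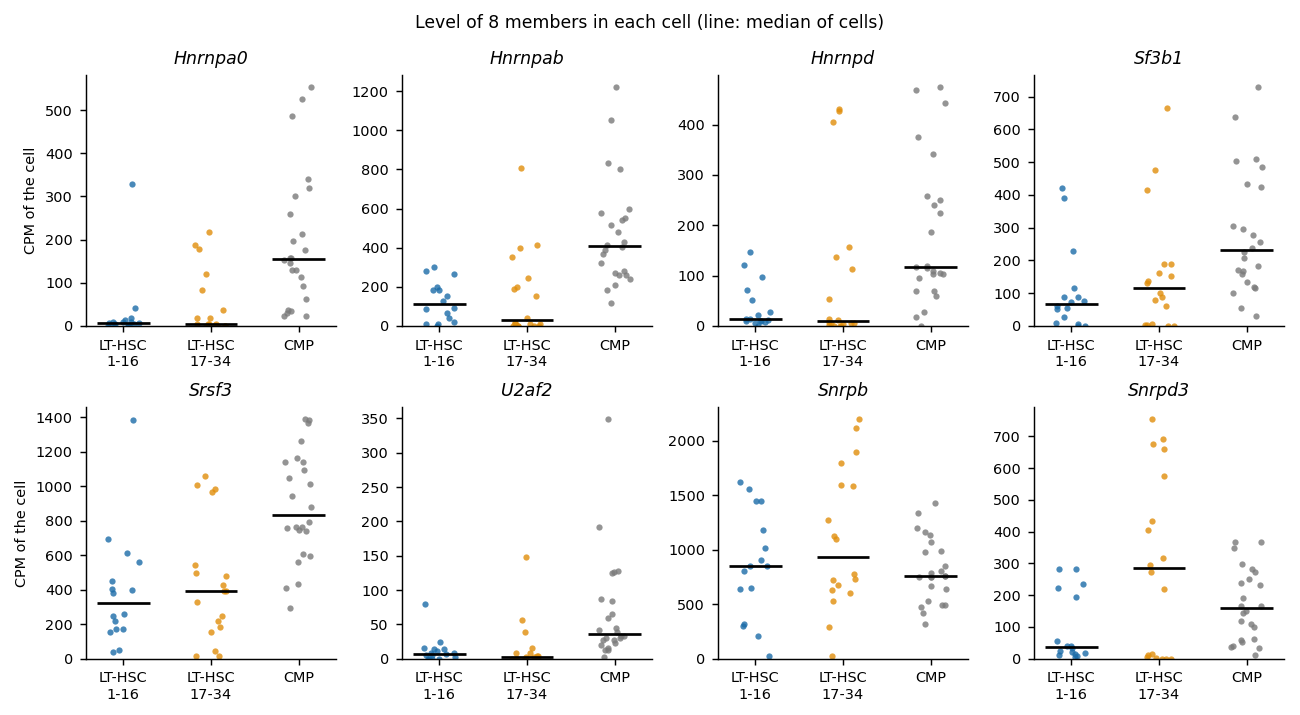
CPM of 8 members in each cell (vertical axes), 1 point a cell, in LT-HSC 1-16, LT-HSC 17-34 and CMP; the genes were chosen after their values were seen. Hnrnpa0 had cell medians of 7.03, 4.79 and 154 CPM, and Snrpd3 of 35.8, 284 and 158.

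SR genes had medians of −0.56 in both comparisons with CMP, and summed to 2445, 2604 and 3450 CPM. At least 2-fold lower were 3 and 1 of 10 (30% and 10%), beside 37.3% and 34.5% of all genes. Srsf3, the smallest SR protein and also an adaptor of mRNA export, held the most counts of the family and stood at 346, 465 and 917 CPM. Its lowest, median and highest cell were at 39.4, 320 and 1382 CPM in LT-HSC 1-16, at 12.8, 393 and 1057 in LT-HSC 17-34 and, in CMP, at 297, 835 and 1389. The log2 ratios to CMP were −1.41 (−1.50 to −1.32) and −0.98 (−1.04 to −0.92), and −1.46 and −1.03 without CMP 1 and CMP 2, so that the second passed 2-fold. The ranges overlapped, with the middle of both LT-HSC pools near the low end of the CMP.

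Srsf2, which binds exonic enhancers and is mutated in myelodysplastic syndromes, stood at 275, 293 and 479 CPM, with log2 ratios to CMP of −0.80 (−0.90 to −0.69) and −0.71 (−0.79 to −0.63). Its 3′ end overlaps Mettl23 on the opposite strand, and whether counting used strand is not given in the sources used here. Srsf10, a repressor of splicing in its dephosphorylated form, stood at 86.5, 174 and 187 CPM. The ratio was −1.11 in LT-HSC 1-16 (−0.88 without CMP 18), −0.11 in LT-HSC 17-34 and 1.01 between them (0.75 without LT-HSC 21). Srsf5 went the other way between the LT-HSC pools, at 509, 340 and 450 CPM, and had a count in every cell. Srsf4 had 3 counts in 1 cell of LT-HSC 1-16, none in LT-HSC 17-34 and 46 in 4 CMP, of which CMP 3 held 50%. At a floor of 3 counts over the pool it was at least 14.2-fold higher in CMP than in LT-HSC 17-34, or 7.59-fold without CMP 3, and this takes the CMP counts as exact. Its ratio in LT-HSC 1-16 was −2.68 (−5.22 to −1.25), and −5.40 without LT-HSC 7. Between the LT-HSC pools the SR median was −0.02, and 0.21 with the mean of each cell's CPM or 0.38 in cells thinned to equal depth.

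The SF3 genes had a median of −0.64 against CMP in LT-HSC 1-16 and of −0.06 in LT-HSC 17-34, and 8 of 9 were above 0 between the LT-HSC pools (median 0.41). Of all 10937 genes 5419 were above 0 there, and 1574 of the 2537 with at least 1000 counts. At least 2-fold lower than CMP were 4 and 2 of 9 (44.4% and 22.2%), beside 37.3% and 34.5% of all genes. The −0.06 became 0.11 with median-of-ratios scaling. Sf3b1, the subunit that clamps the branch point and the splicing gene most often mutated in myelodysplastic syndromes, stood at 88.9, 146 and 281 CPM. Over single cells it ran from 0 to 421 CPM (median 67.5) in LT-HSC 1-16, from 0 to 665 (median 117) in LT-HSC 17-34 and from 29.3 to 731 (median 233) in CMP. The log2 ratios to CMP were −1.66 (−1.84 to −1.49) and −0.94 (−1.05 to −0.83), and without CMP 1 and CMP 2 they were −1.77 and −1.05. The middle cell of both LT-HSC pools lay below the middle CMP, with wide overlap.

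Sf3b3, a scaffold subunit of SF3b, stood at 32.6, 54.6 and 175 CPM, with a count in 8 of 16, 11 of 18 and 24 of 24 cells. Its log2 ratios to CMP were −2.42 and −1.68, −3.26 without LT-HSC 9 and −2.28 without LT-HSC 34. Sf3a1, a subunit of SF3a, stood at 13.5, 5.83 and 54.5 CPM, with ratios of −2.0 (−2.98 without LT-HSC 3) and −3.21 (−4.96 without LT-HSC 21). Between the LT-HSC pools it was −1.21, −0.23 without LT-HSC 3 and −2.96 without LT-HSC 21. Sf3a2, its partner in the same complex, stood at 12, 41.9 and 29.4 CPM and was higher in LT-HSC 17-34 than in LT-HSC 1-16 by 1.79 (1.32 to 2.31) on the log2 scale. Subunits of 1 complex therefore did not keep 1 ratio across pools. Sf3b6, which touches the branch point adenosine and held the most counts of the family, stood at 450, 499 and 370 CPM, with log2 ratios of 0.28 and 0.43.

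U2af2, the large U2AF subunit that binds the pyrimidine tract, was low in both LT-HSC pools, at 12, 13.2 and 63.2 CPM (74.5 in CMP 1 and CMP 2 together). Its lowest, median and highest cell were at 0, 7.29 and 79.5 CPM in LT-HSC 1-16, at 0, 2.58 and 148 in LT-HSC 17-34 and, in CMP, at 2.97, 36.2 and 349. The log2 ratios to CMP were −2.38 (−3.04 without LT-HSC 13) and −2.25. U2af1, the small subunit that reads the AG of the 3′ splice site and is mutated in myelodysplastic syndromes, stood at 198, 169 and 219 CPM, with ratios of −0.15 (−0.28 to −0.01) and −0.37 (−0.49 to −0.26). Its relative U2af1l4 stood at 177, 154 and 94.6 CPM. The 0.90 of U2af1l4 in LT-HSC 1-16 was −0.34 without LT-HSC 16, which held 62.0% of those counts, and the ratio in LT-HSC 17-34 was 0.70 (0.56 to 0.84). The 2 subunits of the U2AF heterodimer thus differed from each other in how far they stood from CMP. Of the last 400 transcript bases of U2af1 and U2af1l4, 76.7% and 72.5% of 50-base stretches are shared with other annotated genes, which makes their counts uncertain.

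Snrp genes stood lowest in LT-HSC 1-16 and highest in LT-HSC 17-34, with CMP between. In LT-HSC 1-16, 9 of 10 had a log2 ratio below 0 against CMP, with a median of −0.28 and Snrpb2 at least 2-fold lower. In LT-HSC 17-34, 8 of 10 were above 0, with a median of 0.21 and none past 2-fold, and 9 of 10 were higher than in LT-HSC 1-16, with a median of 0.62. All 10 had at least 1000 counts. Of the 2537 genes with that minimum, 1503 were below 0 in LT-HSC 1-16 and 1334 above 0 in LT-HSC 17-34. Between the LT-HSC pools 1574 of these genes were higher in LT-HSC 17-34. Their medians in the 3 comparisons were −0.22, 0.05 and 0.25. The Snrp genes summed to 4432, 6649 and 5534 CPM. Under each scaling tried the Snrp medians kept their signs, from −0.44 to −0.04, from 0.12 to 0.39 and from 0.45 to 0.62. The counts did not all hold: 5 of 10 were below 0 in LT-HSC 1-16 with median-of-ratios scaling or without ribosomal protein genes, and 5 of 10 were above 0 in LT-HSC 17-34 when each cell's CPM was averaged.

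Snrpd3, an Sm core protein (chr10:75517551-75537381, plus strand), showed the largest step among members with at least 1000 counts, at 88.9 CPM in LT-HSC 1-16, 335 in LT-HSC 17-34 and 169 in CMP. Its lowest, median and highest cell were at 4.93, 35.8 and 282 CPM, at 0, 284 and 753, and at 12.7, 158 and 368 in that order of pools. The log2 ratio between the LT-HSC pools was 1.91 (1.74 to 2.09), and those to CMP were −0.93 (−1.11 to −0.74) and 0.99 (0.88 to 1.09). The middle cell of LT-HSC 17-34 lay above the highest cell of LT-HSC 1-16, though 3 of 18 of its cells had no count.

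Snrpg, the Sm protein gene with the most counts, was detected in every cell and stood at 1024, 1469 and 1456 CPM, with log2 ratios to CMP of −0.51 and 0.01. Its lowest, median and highest cell were at 393, 1030 and 1613 CPM, at 47.9, 1226 and 2335, and at 613, 1281 and 2249. Snrpb, which encodes the SmB proteins, stood at 855, 1170 and 794 CPM, with ratios of 0.11 and 0.56. Snrpd2 stood at 607, 962 and 641 CPM, and Snrpc, the U1 protein that reads the 5′ splice site, at 294, 520 and 318. Snrpd1 and Snrpe stood at 399, 617 and 576 CPM and at 636, 978 and 869 CPM. By pool level, Sm core genes shared the order of lowest in LT-HSC 1-16 and highest in LT-HSC 17-34, except Snrpb, which was lowest in CMP. The cell medians did not all keep it. Those of Snrpd1 (336, 517 and 575 CPM), Snrpe (672, 776 and 831) and Snrpg were highest in CMP. Those of Snrpb, Snrpd2 and Snrpd3 were highest in LT-HSC 17-34. Snrpa1, a U2 protein, was the only member of the family below LT-HSC 1-16 in LT-HSC 17-34, at 257, 230 and 274 CPM, but the log2 ratio of −0.16 between these pools was 0.29 without LT-HSC 4.

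Related genes can be set against each other within a pool, which takes the pool total out of the comparison. Snrpb2 is a U2 protein and Snrpa its U1 counterpart, and Snrpb2 made up 34.2% (31.1 to 37.4) of the counts of the pair in LT-HSC 1-16, 41.3% (39.3 to 43.3) in LT-HSC 17-34 and 58.4% (56.6 to 60.2) in CMP. Without CMP 1 and CMP 2 the CMP value was 55.9%. In the U2af1 pair, U2af1l4 made up 47.1%, 47.6% and 30.2%, and the first was 26.9% without LT-HSC 16. Hnrnph2 made up 31.8%, 8.71% and 12.7% of its pair with Hnrnph1, the second 2.73% without LT-HSC 22, and Hnrnpdl 72.0%, 64.7% and 59.2% of its pair with Hnrnpd. For Hnrnpdl the CMP share was 62.0% (60.1 to 63.9) without CMP 1 and CMP 2, which overlaps the interval of LT-HSC 17-34 (62.7 to 66.7). Its share in LT-HSC 1-16 was 66.4% without LT-HSC 1, and in LT-HSC 17-34 70.1% without LT-HSC 34, so the order of these pools hung on single cells. Hnrnpul1 made up 1.21%, 0.388% and 4.93% of its pair with Hnrnpu. Leaving out 1 cell moved these to 0.617% (LT-HSC 2) and 1.99% (LT-HSC 4), to 0.130% (LT-HSC 20) and to 2.15% (CMP 19). In the Hnrnpl pair Hnrnpll stood at 23.3%, 26.1% and 25.6%, with all 3 pools inside each other's intervals. Snrpn, the form of Snrpb best known from brain, had no count beside 2917, 7628 and 5606 of Snrpb, which allows a share of up to 0.126%, 0.0483% and 0.0658%. These intervals (exact Clopper-Pearson) cover counting error only. No other share of these pairs moved by over 1.5 times when 1 cell was left out, a limit that the 72.0% of Hnrnpdl could not pass by rising.

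**Figure D4:**
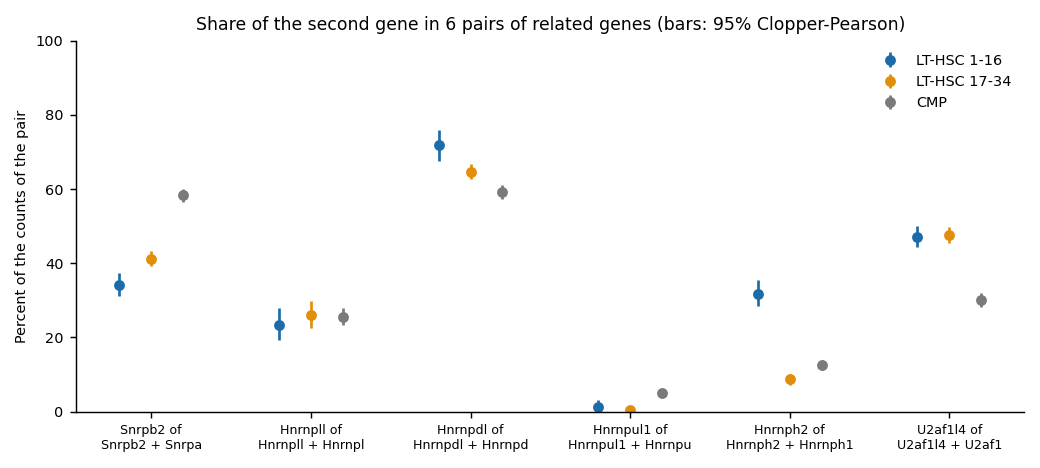
Share of the second gene in the counts of 6 pairs of related genes (vertical axis, percent) in LT-HSC 1-16, LT-HSC 17-34 and CMP, with exact 95% counting intervals as bars. Snrpb2 stands at 34.2%, 41.3% and 58.4%, and Hnrnpll between 23.3% and 26.1%.

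Fewer members were detected per LT-HSC than per CMP. After each cell was thinned to 97978 counts, which left out 2 shallower cells in each pool, 17, 13 and 34 members had a count in every kept cell of LT-HSC 1-16 (14 cells), LT-HSC 17-34 (16) and CMP (22). Without thinning the numbers were 17, 17 and 40. A cell had a count for a median of 39, 37.5 and 47 members after thinning and 43, 40 and 49 before. The same numbers were not computed for all genes, so they do not set the members apart. A count in every cell is also harder to reach in a pool with more cells. Hnrnpa0 was seen in 7 of 14, 8 of 16 and 22 of 22 thinned cells, Sf3b3 in 6, 7 and 21, U2af2 in 10, 7 and 21, and Hnrnpab in 12, 13 and 22. Snrpg and Srsf5 were seen in all of them.

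The cells' content of S, G2 and M transcripts was set beside the families as a description. These 34 transcripts held 1.98, 6.32 and 30.4 per 10000 counts (lowest, median and highest cell) in LT-HSC 1-16, 0.584, 23 and 75.3 in LT-HSC 17-34 and 19.8, 43.5 and 89.1 in CMP. Over the 18 cells of LT-HSC 17-34, Snrp counts per 10000 went with them, with a Pearson r of 0.59 and a Spearman rho of 0.71, and with a cell's total counts at 0.56 and 0.51. Over the 16 cells of LT-HSC 1-16 the values were 0.20 and 0.16, and over the 24 CMP −0.01 and 0.06. Against the same transcripts the hnRNP counts had −0.02 and −0.11 in LT-HSC 1-16, 0.29 and 0.28 in LT-HSC 17-34, and 0.06 and 0.14 in CMP. With the share of ribosomal protein genes they had −0.46 and −0.39, −0.41 and −0.47, and −0.54 and −0.60 in that order of pools. Points share the cell's total as denominator, and in each pool cells can share an animal and a library. The number of members with a count in thinned cells had a Pearson r of 0.68 with these transcripts in LT-HSC 17-34 (16 cells), 0.63 in CMP (22 cells) and −0.16 in LT-HSC 1-16 (14 cells).

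**Figure D5:**
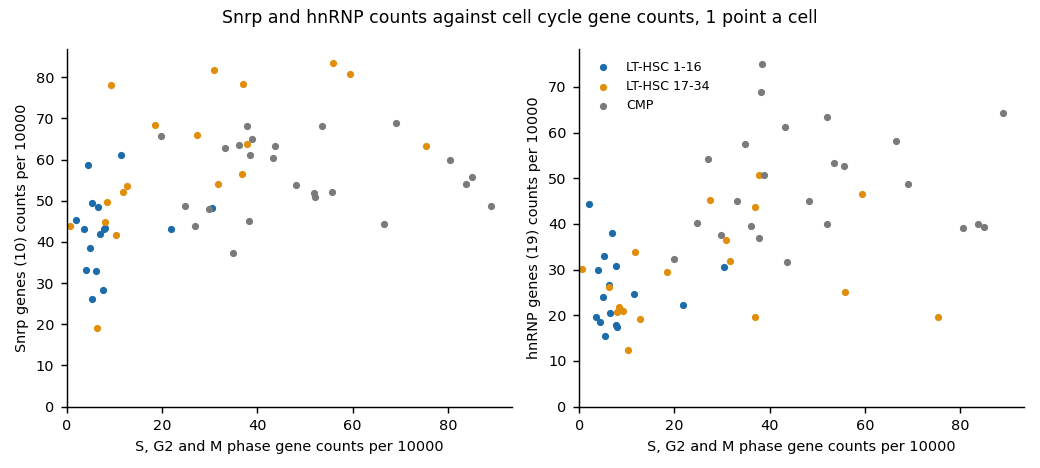
Snrp and hnRNP counts per 10000 (vertical axes) against S, G2 and M transcripts per 10000 (horizontal axis), 1 point a cell, coloured by pool. For Snrp counts Pearson r was 0.59 over 18 cells of LT-HSC 17-34, 0.20 over 16 cells of LT-HSC 1-16 and −0.01 over 24 CMP.

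Other genes of the splicing machinery, from a list of 181 genes of which 174 had at least 20 counts, had medians of −0.49 and −0.31 against CMP. In LT-HSC 1-16, 13 were at least 2-fold higher (7.47%) and 60 lower (34.5%), beside 22.7% and 37.3% of all genes. In LT-HSC 17-34 the counts were 14 (8.05%) and 56 (32.2%), beside 20% and 34.5%. The 10 LSm genes, relatives of the Sm proteins, had medians of −0.52, 0.21 and 0.70 in the 3 comparisons, beside −0.28, 0.21 and 0.62 for the Snrp genes. The 40 other splicing regulators had medians of −1.0 and −0.62 against CMP, beside −1.02 and −1.11 for the hnRNPs, with 1 and 2 higher and 20 and 16 lower (50% and 40%). Unlike the members, the wider list held genes well above CMP in both LT-HSC pools. Rsrp1, an arginine- and serine-rich protein gene, stood at 1099, 1169 and 349 CPM, with log2 ratios of 1.65 (1.58 to 1.73) and 1.74 (1.68 to 1.81), and Msi2, an RNA-binding regulator of blood stem cells, at 106, 127 and 25.3 CPM, with 2.06 and 2.32. Prpf31, a tri-snRNP protein gene, stood at 136, 141 and 54.9 CPM.

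Of the other genes mutated in myeloid disease, Prpf8, the core of the U5 snRNP, stood at 48.7, 122 and 138 CPM. Luc7l2, a U1-associated factor, stood at 91.8, 151 and 187 CPM, and its log2 ratio to CMP was −1.02 in LT-HSC 1-16 and −0.31 in LT-HSC 17-34 (−1.02 without LT-HSC 32). Zrsr2, which serves the minor spliceosome, stood at 36.4, 90.3 and 54.9 CPM, and the helicase gene Ddx41 at 27.3, 54.4 and 45. Qk, a splicing regulator, stood at 4.40, 37.0 and 82.8 CPM, and Snrnp200, the helicase that unwinds U4 from U6, at 58.9, 5.37 and 82.7 CPM, with a count in 11 of 16, 4 of 18 and 23 of 24 cells. The log2 ratios of Snrnp200 to CMP were −0.49 (−1.38 without LT-HSC 1) and −3.93 (−5.17 without LT-HSC 26).

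The library reads 3′ ends, and how well these can be placed limits some of the values. In the annotation, searched on both strands, 30 of the 51 members share no 50-base stretch of their last 400 bases with another gene. Over 50% of them are shared in 5: Hnrnpf, Srsf2, Srsf4, U2af1 and U2af1l4. For Srsf2 and Srsf4 the other gene lies on the opposite strand. The 3′ ends of Hnrnpab and Hnrnpu overlap Phykpl and Cox20 on the opposite strand. Those 2 neighbours had 309 and 5562 counts in all cells, beside 4886 of Hnrnpab and 4510 of Hnrnpu. Of the 50-base stretches of the last 400 bases, 32.7% are shared with other genes for Hnrnpab and 0% for Hnrnpu. What part of the counts of either gene came from its neighbour was not tested. Hnrnpul2 and U2af1l4 are covered at the 3′ end by another annotated gene on the same strand. Hnrnpa0, Hnrnpd, Sf3b1, Srsf3, Snrpg and Snrpd3 have no such neighbour at the 3′ end.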

How the data were processed

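Raw counts per gene symbol and cell, all whole numbers, were deposited by the authors as 1 table. Per the labels' protocols, each cell was reverse transcribed with an oligo(dT) primer carrying a cell barcode and a molecular identifier, amplified, pooled and sequenced from captured 3′ ends. The build mm10 and the tools Seurat 2.0, HTSeq and TopHat2 2.0.12 are named by the submitters' processing notes, which leave their roles open. Whether counts are molecules or reads, and whether strand was used, is not given in the sources used here; if they are reads, intervals are too narrow. The table holds no barcodes, so none could be compared.

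All 58 cells were used, 34 LT-HSC and 24 CMP, matched by title. Counts were summed per pool and divided by the pool's total. log2 ratios add 0.5 to each count, Poisson and conditional binomial intervals are exact at 95%, and called means past 2-fold among the 10937 genes with at least 20 counts. With 1 pool per group no test was run. A count of 0 was bounded at 3 counts over the pool. Correlations over cells have no p-value. Promoters are RefSeq GRCm38.p6 and gene positions GENCODE M21 on GRCm38, the build called mm10.

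The genes, lists and the division of the LT-HSC were chosen with earlier results of these data known. Genes were named by rule: up to 6 highest and 6 lowest ratios past 2-fold per comparison (at least 50 counts over the pools and a count in at least 1 in 3 cells of the higher pool), the gene with most counts per family, genes mutated in myelodysplastic syndromes, pairs of related genes and those under 20 counts, and of the wider list up to 4 each way; Hnrnpa2b1, Hnrnpa3, Hnrnpc, Hnrnpk, Hnrnpm, Hnrnpr, Srsf4, Srsf5, Snrpa1, Snrpc, Snrpd1, Snrpd2 and Snrpe were added after their values were seen. Ratios were checked on simulated data. Python 3.11.15, numpy 2.4.6, pandas 2.3.3, scipy 1.17.1 and matplotlib 3.10.9 were used.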

Additional observations from a re-analysis of the deposited data

How the results depend on the processing

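Medians and 2-fold counts of all members and of each family, and the log2 ratios of 29 members named by rule, were recomputed. The scalings were median-of-ratios, the mean of each cell's CPM and totals without ribosomal protein genes. Other settings left out the 6 shallowest cells, thinned cells to 97978 counts or added 1 to each count. CMP 1 and CMP 2, and each cell in turn, were also left out. Minimums of 5, 50 and (added after the values were seen) 1000 counts were used for medians and 2-fold counts only. The members named after their values were seen, single genes of the wider list, pair shares, shares per cell, correlations and promoter windows were not recomputed with the other scalings. No median over all members changed sign, while the medians of SR, hnRNP and SF3 genes nearest 0 and those of the 3 U2AF genes did in some (SF3 genes in LT-HSC 17-34 against CMP 0.11 and U2AF genes in LT-HSC 1-16 against CMP 0.10, both with median-of-ratios scaling). Median-of-ratios scaling, which moved the median of all genes by 0.24 and 0.17 against CMP, gave member medians of −0.51 in LT-HSC 1-16 and −0.25 in LT-HSC 17-34, and 1 member higher in each (U2af1l4 at 1.14, Snrpd3 at 1.16). Totals without ribosomal protein genes moved the median of all genes by 0.12 in LT-HSC 1-16 against CMP and by −0.11 between the LT-HSC pools, and put 1 member higher in LT-HSC 1-16 (U2af1l4). Thinned cells gave 1 higher in each pool (Hnrnph2 and Sf3a3). The mean of each cell's CPM gave a median of −0.49 in LT-HSC 17-34 against CMP. The minimum of 1000 counts, with 41 members in place of 51, gave medians of −0.53 and −0.18 against CMP. It gave 7 lower in LT-HSC 17-34 against CMP and 0 lower between the LT-HSC pools. Leaving out 1 cell gave medians from −0.85 to −0.62, 0 to 1 higher and 17 to 22 lower in LT-HSC 1-16 against CMP. In LT-HSC 17-34 against CMP it gave −0.52 (without LT-HSC 33) to −0.30 (without LT-HSC 17), 0 to 1 higher and 12 to 18 lower, and between the LT-HSC pools 0.23 to 0.40, 4 to 7 higher and 4 to 6 lower. Of 754 recomputed values of the 29 members named by rule, 461 moved by less than their counting interval, 293 by more and 0 changed sign after passing 2-fold. The causes of these shifts were not tested. No paired analysis was possible because no test was run and the cell numbers only name cells.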
